A study of Mus musculus with 11 samples.

Results

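The 34 genes described here make up the cell's response to low oxygen: the subunits of the hypoxia-inducible factors (HIF), the enzymes that sense oxygen and control them, and genes that HIF switches on. They were picked by gene symbol, and each of the 34 was listed in all 11 libraries, among 23238 symbols in all. Every one of them passed the filter on low values (3 or more libraries with a normalized count of 1 or higher), which left 18248 genes for testing. Messenger RNA was sequenced from cells labelled as mouse cavernous endothelial cells, the lining of the erectile tissue, after 5 days in one of 3 conditions. These were high glucose with Hsp70, a heat shock chaperone (n = 4), high glucose alone (n = 4) and normal glucose (n = 3). All groups shared a culture medium with fetal bovine serum, antibiotics and heparin. The glucose concentrations, the dose and form of Hsp70, the mouse strain, genotype and age, and the oxygen level are missing from the sources used here. The replicates are not described as separate cultures or animals. The p-values therefore speak for the spread between these samples, which may be technical. The series asks what high glucose, and Hsp70 within high glucose, do to the cells' messenger RNA.

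HIF is a pair of proteins, an alpha subunit and the stable partner ARNT. In the presence of oxygen the EGLN prolyl hydroxylases mark the alpha subunit, the VHL ligase complex recognises the mark, and the subunit is destroyed. When oxygen falls, or the hydroxylases lack iron or oxoglutarate, the alpha subunit persists and binds target genes. These targets spare oxygen, remove damaged mitochondria, export acid, store glycogen and modify collagen. Since this control acts on protein, the messenger RNA levels of the alpha subunits do not measure HIF protein.

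Levels are given as deposited, read as log2(normalized count + 1). They are not scaled to gene length, so only levels of the same gene are compared. A number in the names of the deposited files sorts the libraries into 4 sets. Sets 3, 4 and 5 each have a library of every group, whereas set 2 has none of normal glucose. The sources used here do not say what a set stands for. Values of a group are listed in set order, 2 to 5 for high glucose with Hsp70 and for high glucose, and 3 to 5 for normal glucose. A difference is the group term of a limma model that also holds a term for the set, with its standard error (SE).

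Several markers that define endothelium were low outside set 3, while others were present there. The deposited normalized counts summed to 24.8 to 27.8 M per library. Pecam1, an adhesion molecule that defines endothelial cells, had levels of 8.86 to 9.07 in set 3, against 2.68 to 4.51 in the other 8 libraries. Cldn5, Robo4, Sox17 and Sox18, which also define endothelium, were at 0 in both libraries of set 2. Cdh5, the cadherin of endothelial junctions, stood at 9.01 to 9.52 in set 3 and 5.68 to 8.26 elsewhere, and Tek, an angiopoietin receptor, at 5.22 to 5.89 in set 3 and 5.09 to 6.44 elsewhere. The summed level of the 14 endothelial markers was 10.96 to 11.09 (log2 of summed normalized counts) in set 3 and 8.44 to 9.09 in the other sets, and 13 of the 14 were higher in set 3 in limma. The same sum over 10 fibroblast markers was 18.28 to 18.60 in set 3 and 17.30 to 17.98 elsewhere. Macrophage and leukocyte markers (12.19 to 12.44 against 9.06 to 9.77) and Schwann cell markers (11.85 to 12.88 against 9.91 to 11.30) were also higher in set 3, with 9 of 10 and 5 of 7 called. Of 10 fibroblast markers 4 were called higher and 1 lower. Smooth muscle and pericyte markers summed to 13.29 to 13.63 in set 3, against 12.87 to 13.22, with 4 of 10 called higher and 1 lower. One more library stood apart: the set 4 library with Hsp70 (replicate 3) lay a mean 0.57 log2 units from its nearest neighbour, whereas the other 10 lay 0.33 to 0.46 from theirs. In such bulk samples, fewer cells of a type and less RNA per cell cannot be told apart.

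The sequences below show the promoters of the genes with the smallest p-values among those with an entry in the RefSeq promoter table, because HIF binds promoters through the core letters ACGTG or GCGTG. Each window runs from 250 bases before to 50 bases after the annotated start (RefSeq, GRCm38.p6). Of the 34 genes, 26 had a window, matched by symbol (Ero1l under its RefSeq symbol Ero1a). In 22 of these 26 (84.6%) at least 1 window held a core on either strand, against 61.2% of the 13448 tested genes with a window and 46.7% of all 27025 genes in the table. Capitals mark the core on either strand, and CACGTG holds it on both strands at overlapping positions. A match describes letters and is not a binding site. The windows lie at chr19:36736555-36736854 on the minus strand (Ppp1r3c), chr19:53329163-53329462 on the plus strand (Mxi1), chr4:43506776-43507075 on the plus strand (Car9), chr6:145865371-145865670 on the minus strand (Bhlhe41) and chr8:45999801-46000100 on the minus strand (Ankrd37). For Mxi1 the second of 3 windows is shown, since the first holds no core.
Ppp1r3c: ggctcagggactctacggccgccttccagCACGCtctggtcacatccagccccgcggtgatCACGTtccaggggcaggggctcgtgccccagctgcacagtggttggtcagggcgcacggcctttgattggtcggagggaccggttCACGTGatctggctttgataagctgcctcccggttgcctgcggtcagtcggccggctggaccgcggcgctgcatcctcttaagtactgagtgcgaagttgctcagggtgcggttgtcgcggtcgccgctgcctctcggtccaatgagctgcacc
Mxi1: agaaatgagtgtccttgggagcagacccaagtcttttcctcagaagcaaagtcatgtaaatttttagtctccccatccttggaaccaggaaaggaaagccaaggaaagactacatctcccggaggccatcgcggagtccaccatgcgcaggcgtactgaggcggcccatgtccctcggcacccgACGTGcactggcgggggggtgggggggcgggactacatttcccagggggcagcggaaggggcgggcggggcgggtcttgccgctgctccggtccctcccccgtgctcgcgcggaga
Car9: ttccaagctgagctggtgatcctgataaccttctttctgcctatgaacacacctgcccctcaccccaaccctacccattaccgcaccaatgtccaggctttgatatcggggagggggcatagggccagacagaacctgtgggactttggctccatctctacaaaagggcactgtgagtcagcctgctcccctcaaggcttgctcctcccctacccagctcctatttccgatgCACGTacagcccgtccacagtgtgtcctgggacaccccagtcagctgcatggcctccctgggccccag
Bhlhe41: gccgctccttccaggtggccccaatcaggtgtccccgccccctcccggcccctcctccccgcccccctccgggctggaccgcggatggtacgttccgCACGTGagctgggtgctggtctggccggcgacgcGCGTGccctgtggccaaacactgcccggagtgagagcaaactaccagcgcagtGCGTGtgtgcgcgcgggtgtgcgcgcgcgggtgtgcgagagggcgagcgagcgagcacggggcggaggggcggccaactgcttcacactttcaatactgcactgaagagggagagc
Ankrd37: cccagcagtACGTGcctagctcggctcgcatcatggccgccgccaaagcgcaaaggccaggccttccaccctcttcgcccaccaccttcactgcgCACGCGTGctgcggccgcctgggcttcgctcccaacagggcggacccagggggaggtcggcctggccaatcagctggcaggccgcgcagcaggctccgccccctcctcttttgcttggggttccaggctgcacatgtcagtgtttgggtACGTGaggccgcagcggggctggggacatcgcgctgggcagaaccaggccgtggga

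These letters show 4 cores each in the Ppp1r3c, Bhlhe41 and Ankrd37 windows, counted on both strands, and 1 each in the Mxi1 and Car9 windows shown.

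No gene of the response changed by the adjusted test in high glucose or with Hsp70. Between high and normal glucose, 5 genes had an unadjusted p under 0.05: Ppp1r3c, Mxi1 and Stc1 were higher and Bhlhe40 and Car9 lower in high glucose. When Hsp70 was added to high glucose, Car9 was the 1 gene at that level, and it was higher. In limma with Benjamini-Hochberg adjustment over all genes tested, 0 of 18248 genes (0%) and 0 of the 34 passed 0.05 in each of the 4 comparisons made. At an unadjusted p under 0.05 there were 5 of 34 for high against normal glucose (14.7%, against 3.49% or 636 of all genes). There was 1 of 34 for Hsp70 against high glucose (2.94%, against 1.67% or 305), and there were 5 for Hsp70 against normal glucose (against 3.22% or 587). For both high glucose groups pooled against normal glucose there were 5 (against 3.73% or 681). Leaving out 1 library moved these counts. For high against normal glucose 1 of 34 had an unadjusted p under 0.05 when high glucose replicate 3 or normal glucose replicate 2 was left out. There were 3 without normal glucose replicate 3, high glucose replicate 2 or 4, or Hsp70 replicate 2, and 1 without the set term. For Hsp70 against high glucose there were 0 without either set 2 library or without the set term, and 2 without normal glucose replicate 1, high glucose replicate 2 or Hsp70 replicate 3. For Hsp70 against normal glucose there were 2 without normal glucose replicate 3 or Hsp70 replicate 4, 3 without high glucose replicate 2 or normal glucose replicate 2, 9 without Hsp70 replicate 3, and 2 without the set term. For both high glucose groups pooled there were 3 without normal glucose replicate 2, 10 without Hsp70 replicate 3 and 2 without the set term. With sample weights there were 10 in each comparison with normal glucose and 4 for Hsp70 against high glucose. The last 3 of these comparisons share libraries with the first, so neither their counts nor the differences of a gene in them are independent. No cell type marker passed the adjusted test in these comparisons, but some had an unadjusted p under 0.05. In high against normal glucose, Cspg4, a pericyte proteoglycan, differed by -0.53 (SE 0.13, unadjusted p = 0.00225, limma), Rgs5, a pericyte marker, by 0.89 (SE 0.27, unadjusted p = 0.00853) and Lum, a fibroblast proteoglycan, by 0.64 (SE 0.17, unadjusted p = 0.00428). With Hsp70 against high glucose Rgs5 differed by -0.95 (SE 0.24, unadjusted p = 0.00304, limma). In this comparison 2 of 14 endothelial markers had an unadjusted p under 0.05, 1 higher and 1 lower. Of 10 smooth muscle and pericyte markers there were also 2, 1 higher and 1 lower. Of 10 macrophage and leukocyte markers there were 2, both lower. The part of these cell types in the group differences was not tested.

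The split of the 34 genes above and below 0 depended on the libraries and the model. Between high and normal glucose, 17 of the 34 lay above 0 and 17 below, with a median of 0.0008 on the log2 scale beside -0.0024 over all genes tested. Without the set term 23 lay below 0, and 22 with sample weights or with a block by title number. With Hsp70 against high glucose, 12 lay above 0 and 22 below (median -0.0820, all genes 0.0029), but 18 lay below without either library of set 2 (Hsp70 replicate 1 or high glucose replicate 1), with a median of -0.0127. The median was above 0 within set 4 (0.09) and below 0 within sets 2 (-0.12), 3 (-0.04) and 5 (-0.05). With Hsp70 against normal glucose, 11 lay above 0 and 23 below (median -0.0635, all genes 0.0001). For high against normal glucose, Arnt, Hif1an, Mxi1, Stc1 and Ppp1r3c were above 0 in every set (5 of 34, 14.7%, against 11.3% of all genes). Arnt2, Bhlhe40, Bhlhe41, Ndrg1, Kdm3a, Plod1 and Car9 were below 0 in every set (7 of 34, 20.6%, against 14.3%). With Hsp70 against high glucose, Arnt2, Car9, Car12 and Stc1 were above 0 in all 4 sets (11.8%, against 3.89%), and Egln1, Egln3, Bnip3, Higd1a and Plod2 below 0 (14.7%, against 4.42%). With Hsp70 against normal glucose, 3 were above 0 in every set (8.82%, against 7.62%) and 7 below (20.6%, against 9.92%). Sets aside, the libraries of the groups compared did not overlap for Bhlhe40 and Plod1 between high and normal glucose (2 of 34, 5.88%, against 2.38% of all genes), and for Car12 with Hsp70 against high glucose (2.94%, against 0.608%). They did not overlap for Bhlhe40 and Egln3 with Hsp70 against normal glucose (5.88%, against 1.72%), nor for Bhlhe40 when both high glucose groups were set against normal glucose (2.94%, against 0.367%).

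**Figure D1:**
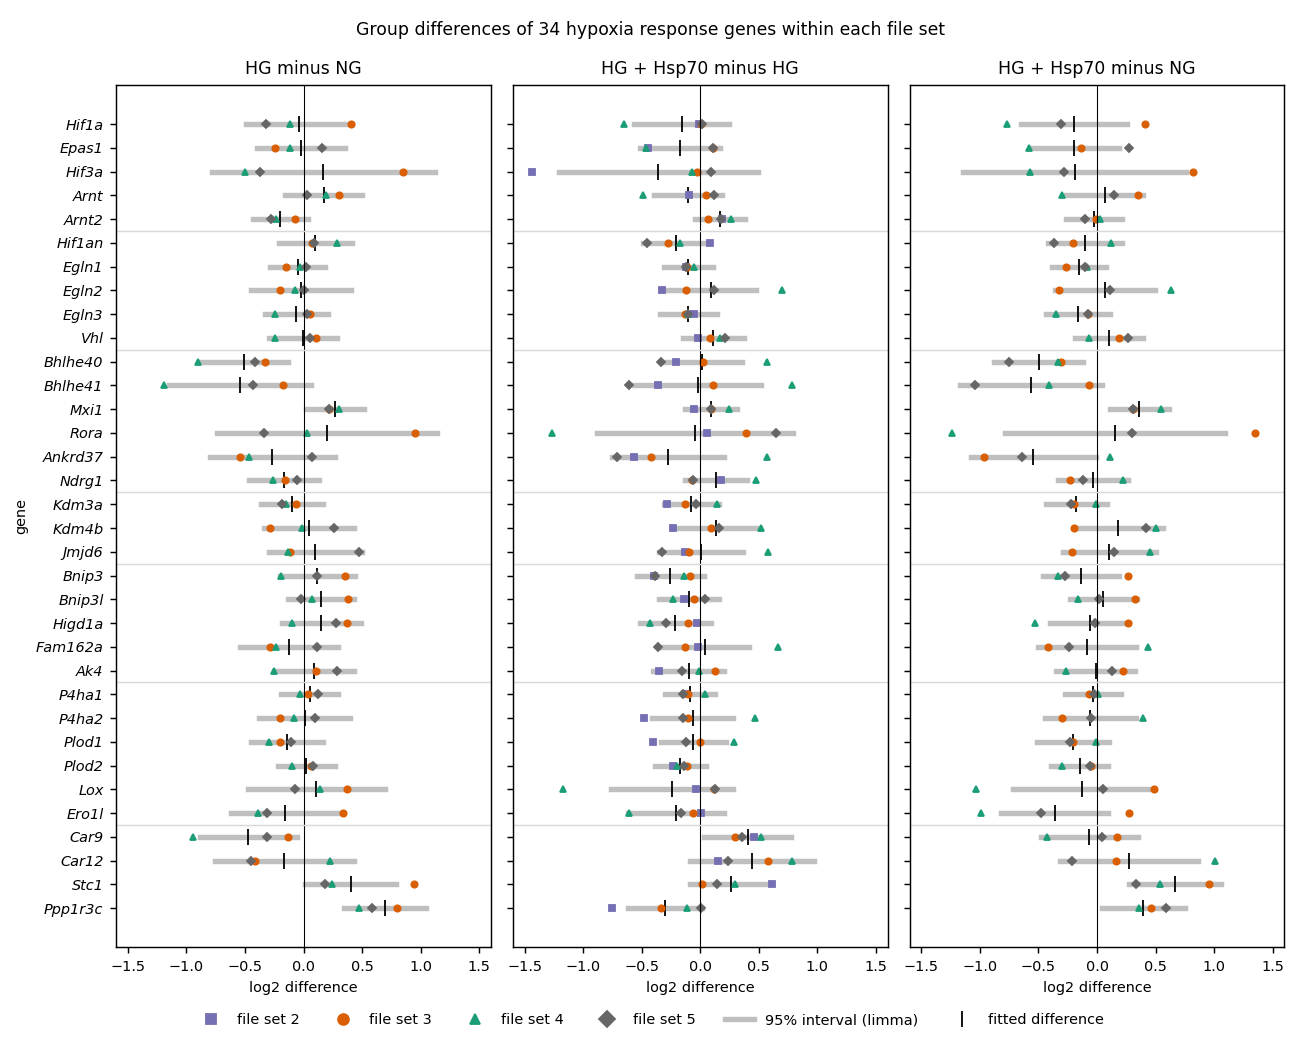
Log2 difference of each of the 34 genes within each set (points; set 2 has no normal glucose library), with the fitted difference (black bar) and its 95% interval (grey). From left to right the panels give high glucose (HG) minus normal glucose (NG), high glucose with Hsp70 minus high glucose, and high glucose with Hsp70 minus normal glucose; points scatter on both sides of 0 for most genes, whereas Ppp1r3c in the left panel lies at 0.47 to 0.80 in all 3 sets.

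Among the HIF factors, neither the 3 alpha subunits nor their partners passed the test in any comparison. Hif1a (chr12:73901375-73947530, GRCm38), the widely expressed alpha subunit, had levels of 13.999, 14.07, 13.28 and 14.22 with Hsp70, of 14.01, 14.06, 13.92 and 14.21 in high glucose and of 13.66, 14.04 and 14.53 in normal glucose. The groups overlapped, and the Hsp70 library of set 4 was the lowest of the 11. The Hsp70 difference from high glucose was -0.16 (SE 0.18, unadjusted p = 0.4, adjusted p = 0.999, limma), and 0.02 without that library. Against normal glucose, the high glucose difference of Hif1a was -0.04 (SE 0.20), above 0 in set 3 (0.40) and below it in sets 4 (-0.12) and 5 (-0.33).

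Epas1 (chr17:86753700-86833410), the alpha subunit known for its high expression in endothelium, separated by set and not by group. Its levels were 10.08, 12.30, 10.32 and 10.996 with Hsp70, 10.53, 12.19, 10.78 and 10.88 in high glucose, and 12.43, 10.90 and 10.73 in normal glucose. The 3 libraries of set 3 lay above the other 8, whatever their group. The high glucose difference from normal glucose was -0.02 (SE 0.17), and the Hsp70 difference from high glucose -0.17 (SE 0.15). Hif3a, whose splice forms include inhibitors of the other subunits, was near the low end of detection, with 2.54, 4.62, 4.09 and 4.46 with Hsp70, 3.97, 4.65, 4.16 and 4.37 in high glucose, and 3.80, 4.66 and 4.74 in normal glucose. Its lowest value was the Hsp70 library of set 2, and the groups overlapped. Of the partners, Arnt ranged from 11.38 to 11.91 over all libraries and Arnt2 from 10.43 to 11.03. Arnt2 was higher with Hsp70 than in high glucose in all 4 sets, by 0.17 (SE 0.09, unadjusted p = 0.105, limma), and lower in high than in normal glucose in all 3 sets (difference -0.20, SE 0.11, unadjusted p = 0.0933). Both Arnt2 differences use the same high glucose libraries and are not independent.

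No oxygen sensor passed the test, and Egln1 and Egln3 had small differences below 0 with Hsp70 in every set. Egln1, the main HIF prolyl hydroxylase and itself a HIF target, had levels of 10.62, 10.94, 10.58 and 10.79 with Hsp70, 10.74, 11.05, 10.63 and 10.92 in high glucose, and 11.20, 10.67 and 10.90 in normal glucose. It was lower with Hsp70 than in high glucose in each of the 4 sets, by -0.13 to -0.05, although the groups overlapped across sets. The difference was -0.10 (SE 0.09, unadjusted p = 0.298, limma). Egln3, the hydroxylase most strongly induced by HIF in many cells, had 8.27, 8.67, 8.44 and 8.67 with Hsp70, 8.33, 8.80, 8.54 and 8.78 in high glucose, and 8.74, 8.79 and 8.75 in normal glucose. All 4 Hsp70 libraries were below all 3 of normal glucose, while the high glucose libraries spanned both. With Hsp70 it averaged 8.51 ± 0.19 (SD, n = 4), against 8.76 ± 0.02 in normal glucose (SD, n = 3); the within-set difference was -0.16 (SE 0.12, unadjusted p = 0.21, limma).

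Egln2, the remaining prolyl hydroxylase, stood at 9.64, 9.58, 10.38 and 9.73 with Hsp70, at 9.96, 9.70, 9.68 and 9.62 in high glucose and at 9.91, 9.75 and 9.62 in normal glucose. Its highest value was the Hsp70 library of set 4, and the groups overlapped. Hif1an, an asparagine hydroxylase that blocks HIF from its coactivators, ranged from 8.47 to 9.02, and Vhl from 8.21 to 8.65. Neither came to an unadjusted p under 0.05 in the 4 comparisons: the smallest for Hif1an was 0.133, with Hsp70 against high glucose (difference -0.21, SE 0.13, limma).

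Among targets that act on transcription, Bhlhe40 and Bhlhe41 were lower and Mxi1 higher in both high glucose groups than in normal glucose, without passing the adjusted test. Bhlhe40 (chr6:108660629-108666925), a repressor that also acts in the circadian clock, had levels of 9.90, 10.23, 10.33 and 9.94 with Hsp70, 10.11, 10.21, 9.76 and 10.27 in high glucose, and 10.53, 10.66 and 10.69 in normal glucose. All 8 high glucose libraries, with or without Hsp70, lay below all 3 of normal glucose. High glucose averaged 10.09 ± 0.23 (SD, n = 4), against 10.63 ± 0.08 in normal glucose (SD, n = 3). The difference was -0.51 (SE 0.17, 0.701 times normal glucose, unadjusted p = 0.0136, adjusted p = 1, limma). With Hsp70 against normal glucose it was -0.50 (SE 0.17, unadjusted p = 0.0154, limma), and between the high glucose groups it was 0.01 (SE 0.15). Each of the Bhlhe40 differences from normal glucose kept an unadjusted p under 0.05 in 8 of 11 fits with a library left out. With both high glucose groups together, the difference of Bhlhe40 from normal glucose was -0.51 (SE 0.15, unadjusted p = 0.00809, limma), lay between -0.60 and -0.40 when each library was left out in turn, and kept an unadjusted p under 0.05 in all 11 of these.

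Bhlhe41, its close relative, had 7.16, 6.73, 6.84 and 6.28 with Hsp70, 7.52, 6.62, 6.05 and 6.90 in high glucose, and 6.80, 7.24 and 7.33 in normal glucose. Within each set the high glucose libraries lay below the normal glucose one, by -0.18, -1.19 and -0.43 in sets 3, 4 and 5, but the groups overlapped across sets. The difference of both high glucose groups from normal glucose was -0.55 (SE 0.24, unadjusted p = 0.0462, limma), and its unadjusted p stayed under 0.05 in 4 of 11 fits with a library left out. Mxi1 (chr19:53310518-53375810), which pairs with MAX and opposes MYC, stood at 10.06, 10.86, 10.69 and 10.45 with Hsp70, at 10.11, 10.77, 10.45 and 10.36 in high glucose, and at 10.55, 10.15 and 10.14 in normal glucose. In each of sets 3 to 5 the Hsp70 library was highest and the normal glucose library lowest. The difference of Mxi1 was 0.27 between high and normal glucose (SE 0.11, unadjusted p = 0.0369) and 0.36 with Hsp70 against normal glucose (SE 0.11, 1.29-fold, unadjusted p = 0.00902, limma). The first kept an unadjusted p under 0.05 in 1 of 11 fits with a library left out, and the other in 10 of 11. Without the set term the high glucose difference of Mxi1 was 0.14 (unadjusted p = 0.53, limma).

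Ankrd37, an ankyrin repeat protein and known HIF target, had 7.32, 7.74, 8.33 and 7.65 with Hsp70, 7.89, 8.16, 7.75 and 8.36 in high glucose, and 8.70, 8.22 and 8.29 in normal glucose. In sets 3 and 5 the Hsp70 library was lowest, and in set 4 it was highest. With Hsp70 against normal glucose the difference was -0.55 (SE 0.24, unadjusted p = 0.0465), and -0.85 without the set 4 Hsp70 library (unadjusted p = 0.000386, limma). Without set 3 it was -0.35 (unadjusted p = 0.273, limma), and with each library left out in turn the unadjusted p of Ankrd37 was under 0.05 in 4 of 11. Ankrd37 shares exon sequence with Ufsp2 on the other strand, whose level was 10.21 to 10.96. The sources used here do not say whether counting used the strand, so reads of the pair may not have been told apart. The differences of Ufsp2 were -0.06, 0.04 and -0.02 for high against normal glucose, Hsp70 against high glucose and Hsp70 against normal glucose. Exons of Bhlhe40 overlap those of 0610040F04Rik, a gene at 5.16 to 5.84. Ndrg1, a stress-responsive gene known for its induction by hypoxia, had 10.38, 11.20, 10.67 and 10.35 with Hsp70, 10.20, 11.27, 10.19 and 10.41 in high glucose, and 11.43, 10.46 and 10.46 in normal glucose. It was lower in high than in normal glucose in 3 of 3 sets (difference -0.17, SE 0.13), with set 3 above the other libraries. Rora, a nuclear receptor of the clock, ranged from 9.60 to 11.68, and its Hsp70 difference from high glucose was -1.27 in set 4 but 0.64 in set 5.

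**Figure D2:**
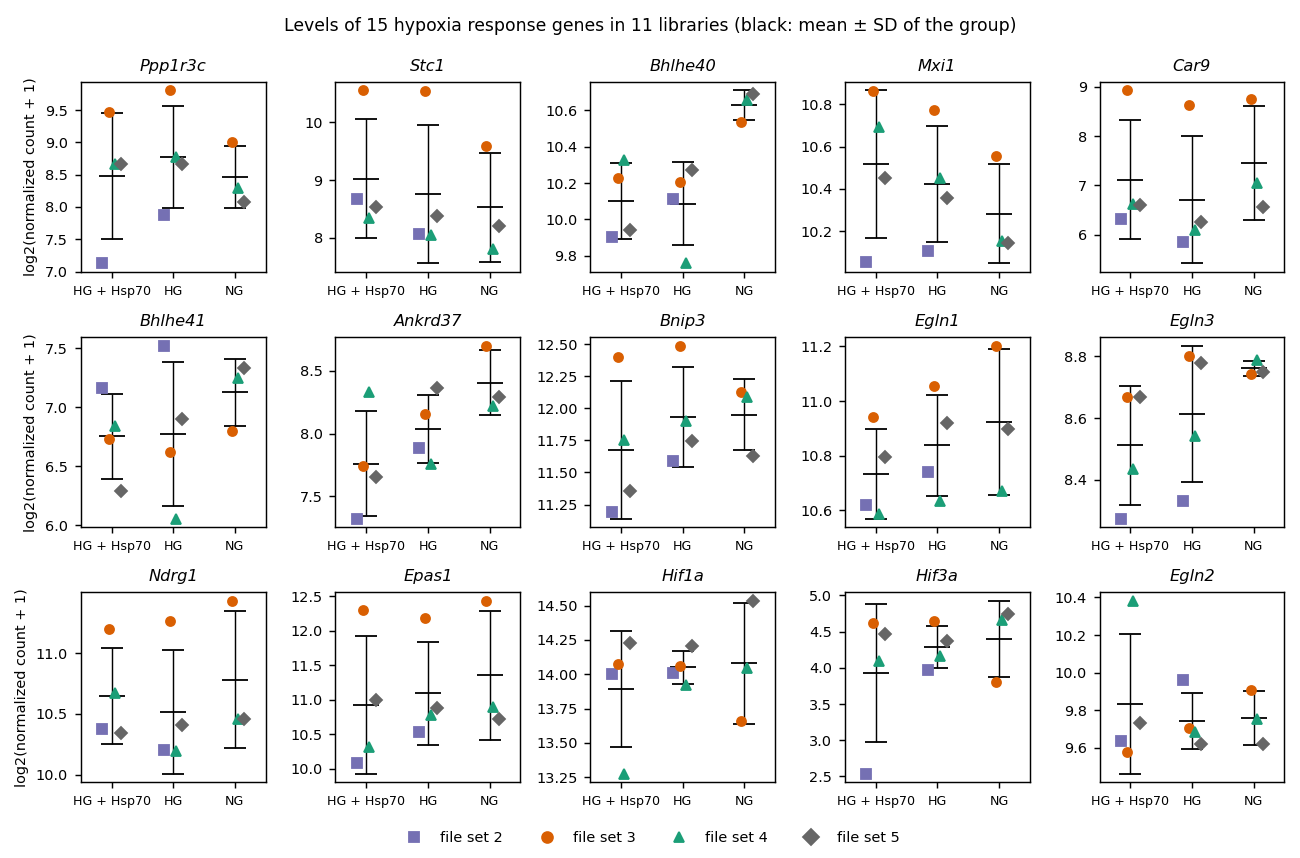
Level of 15 genes, in log2(normalized count + 1), in each of the 11 libraries, with high glucose and Hsp70 (HG + Hsp70) at the left, high glucose (HG) in the middle and normal glucose (NG) at the right of each panel; the symbol gives the set, and black bars the mean ± SD of the group (n = 4, 4 and 3). The normal glucose libraries of Bhlhe40, at 10.53 to 10.69, lie above all 8 others, and the set 3 libraries of Car9, Stc1 and Epas1 lie above all other libraries of these genes.

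None of the 3 chromatin enzymes came to an unadjusted p under 0.05 between groups. Kdm3a, which removes methyl groups from lysine on histone tails and is a classical HIF target, ranged from 10.79 to 11.82 and was lower in high than in normal glucose in 3 of 3 sets (difference -0.10, SE 0.12). Kdm4b, another histone demethylase, ranged from 8.82 to 9.95, and Jmjd6, an oxygenase with a similar fold, from 9.16 to 9.90. The highest level of Kdm4b and of Jmjd6 was the Hsp70 library of set 4.

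Of the mitochondrial targets, Bnip3 had the smallest unadjusted p with Hsp70, and its difference was negative. Bnip3, a receptor that marks mitochondria for removal, had 11.19, 12.40, 11.76 and 11.36 with Hsp70, 11.59, 12.49, 11.90 and 11.75 in high glucose, and 12.13, 12.09 and 11.63 in normal glucose. In each of the 4 sets the Hsp70 library was lower than the high glucose one, by -0.40, -0.09, -0.14 and -0.39, while the groups overlapped across sets. The difference was -0.26 (SE 0.13, unadjusted p = 0.0763, adjusted p = 0.999, limma). Higd1a, a small protein of the respiratory chain, was lower with Hsp70 too in value (difference -0.21, SE 0.14, below 0 in 4 of 4 sets), over a range of 9.61 to 10.91. Bnip3l, a relative of Bnip3 in mitophagy, ranged from 12.03 to 12.52, Fam162a, a mitochondrial protein of hypoxic cell death, from 12.63 to 13.52, and Ak4, an adenylate kinase of the mitochondrial matrix, from 7.88 to 8.9985.

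All 6 genes for collagen and protein folding had fitted differences below 0 with Hsp70, against high glucose (median -0.13) and against normal glucose (median -0.14). None came to an unadjusted p under 0.05. Below 0 in every set were 1 of the 6 against high glucose (4.42% of all genes) and 2 against normal glucose (9.92%). Against high glucose, Lox differed by -0.04, 0.12, -1.17 and 0.13 in sets 2 to 5. P4ha1, P4ha2 and Plod1 were above 0 in set 4 alone (0.04, 0.47 and 0.29). P4ha1 and P4ha2, catalytic subunits of the collagen prolyl hydroxylase, ranged from 13.07 to 13.45 and from 9.97 to 11.56. Plod1 and Plod2, which hydroxylate lysine in collagen, ranged from 11.70 to 12.32 and from 10.93 to 11.63. High glucose libraries of Plod1 stood at 12.11, 12.12, 11.99 and 12.02, below all 3 of normal glucose at 12.32, 12.28 and 12.13, and the difference was -0.14 (SE 0.14, unadjusted p = 0.315, limma). Plod2 was lower with Hsp70 than in high glucose in 4 of 4 sets (difference -0.17, SE 0.10, unadjusted p = 0.111, limma). Lox, which cross-links collagen, ranged from 13.26 to 14.85, and Ero1l, an oxidase that drives disulphide formation, from 11.87 to 13.04. The lowest level of both Lox and Ero1l was the Hsp70 library of set 4.

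The 4 genes for acid export, secretion and glycogen include Ppp1r3c and Stc1, which had the smallest p-values of the 34 for high and for Hsp70 against normal glucose, and Car9. Ppp1r3c (chr19:36731731-36736653) brings protein phosphatase to glycogen and so favours glycogen storage. Its levels were 7.13, 9.47, 8.66 and 8.67 with Hsp70, 7.88, 9.80, 8.77 and 8.66 in high glucose, and 9.01, 8.30 and 8.08 in normal glucose. In every set the high glucose library lay above the normal glucose one, by 0.80, 0.47 and 0.59 in sets 3, 4 and 5, although set 3 lay so high that the groups overlapped across sets. The difference was 0.69 (SE 0.16, 1.62-fold, unadjusted p = 0.00151, adjusted p = 1, limma), the smallest p of the 34 genes in this comparison. With each library left out in turn it lay between 0.62 and 0.78, with an unadjusted p under 0.05 in all 11. Without the set term the difference of Ppp1r3c was 0.32 (SE 0.53, unadjusted p = 0.557, limma), and set 2, with the lowest values of Ppp1r3c, holds no normal glucose library. With Hsp70, Ppp1r3c was 0.40 above normal glucose (SE 0.16, unadjusted p = 0.0318) and differed from high glucose by -0.30 (SE 0.14, unadjusted p = 0.061, limma). The difference of Hsp70 from normal glucose kept an unadjusted p under 0.05 in 5 of 11 fits with a library left out.

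Stc1 (chr14:69029238-69041804), a secreted glycoprotein that acts on calcium and phosphate handling, had 8.67, 10.55, 8.34 and 8.53 with Hsp70, 8.06, 10.53, 8.05 and 8.39 in high glucose, and 9.59, 7.80 and 8.20 in normal glucose. Within each of sets 3 to 5 normal glucose was lowest and Hsp70 highest, with the set 3 libraries above all others. With Hsp70 the difference from normal glucose was 0.67 (SE 0.17, 1.59-fold, unadjusted p = 0.00374, adjusted p = 1, limma), and it was 0.40 for high glucose (SE 0.17, unadjusted p = 0.0457). The high glucose difference of Stc1 lay between 0.19 and 0.54 with each library left out, with an unadjusted p under 0.05 in 5 of 11. It was 0.15 without set 3 (unadjusted p = 0.457, limma). Left out 1 at a time, the libraries gave Stc1 differences of 0.46 to 0.80 for Hsp70 against normal glucose, all 11 with an unadjusted p under 0.05. With Hsp70 against high glucose it was higher in 4 of 4 sets, by 0.27 (SE 0.16, unadjusted p = 0.12, limma). Without the set term the Hsp70 difference from normal glucose was 0.49 (unadjusted p = 0.492, limma), and without set 3 it was 0.50 (unadjusted p = 0.0312).

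Car9 (chr4:43506966-43513729), a carbonic anhydrase at the cell surface that helps to export acid, had 6.31, 8.92, 6.62 and 6.61 with Hsp70, 5.85, 8.62, 6.10 and 6.26 in high glucose, and 8.76, 7.05 and 6.57 in normal glucose. In every set the high glucose library was the lowest, and in 4 of 4 sets the Hsp70 library lay above it. Across sets the groups overlapped, as set 3 was far above the rest. High glucose differed from normal glucose by -0.47 (SE 0.18, 0.721 times, unadjusted p = 0.0302, limma), and Hsp70 from high glucose by 0.41 (SE 0.17, 1.33-fold, unadjusted p = 0.035, adjusted p = 0.999). These differences share the high glucose libraries, with opposite sign, and so are not independent. Between Hsp70 and normal glucose the difference of Car9 was -0.06 (SE 0.18, 95% interval -0.48 to 0.35). Leaving out each library in turn kept the unadjusted p under 0.05 in 9 of 11 for high against normal glucose and in 5 of 11 for Hsp70 against high glucose. Without set 3 this Car9 difference was 0.44 (unadjusted p = 0.0885, limma), and without the set term it was 0.41 (unadjusted p = 0.591). Car12, another carbonic anhydrase of the cell surface, had 5.77, 5.67, 6.38 and 5.85 with Hsp70, 5.62, 5.09, 5.59 and 5.62 in high glucose, and 5.50, 5.37 and 6.07 in normal glucose. All 4 Hsp70 libraries lay above all 4 of high glucose, and the difference was 0.44 (SE 0.24, unadjusted p = 0.0948, limma).

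**Figure D3:**
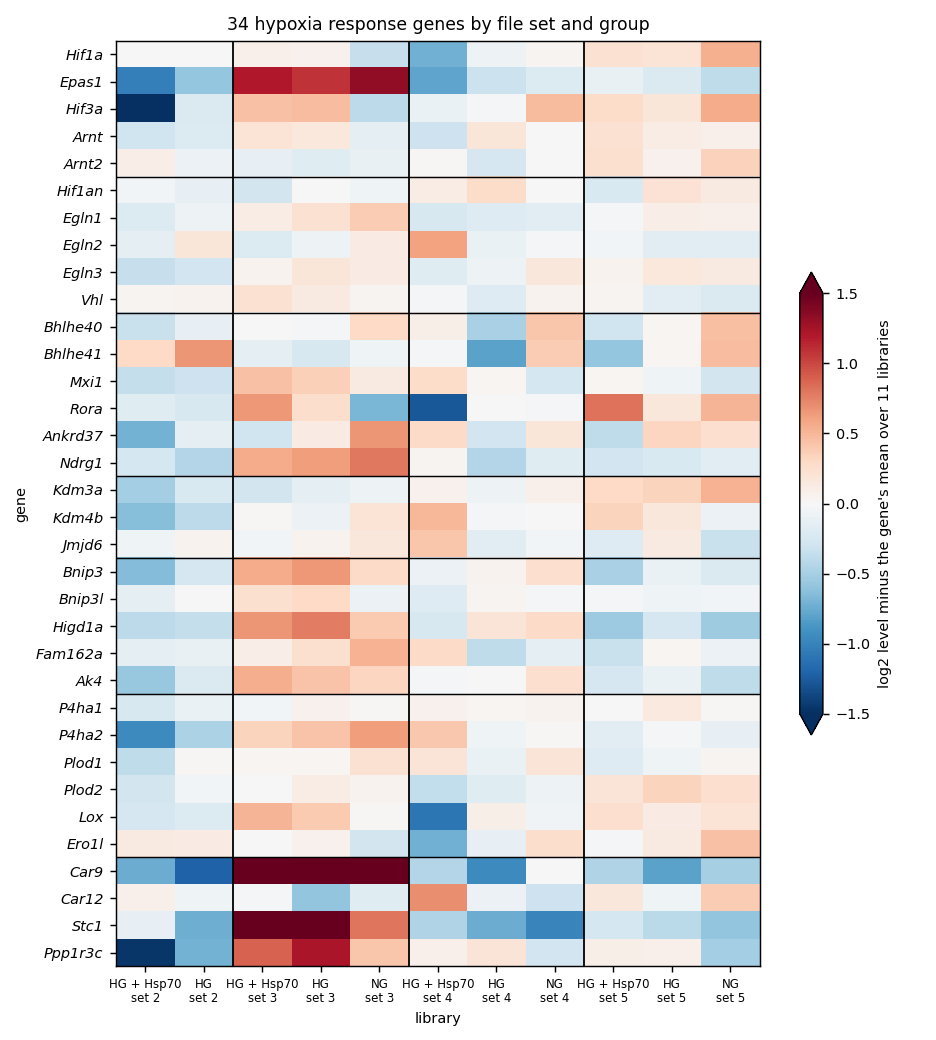
Level of each of the 34 genes (rows, grouped by role) in each of the 11 libraries (columns, by set, with Hsp70 left of high glucose and normal glucose within a set), as the log2 level minus the mean of that gene over the libraries; colours saturate at 1.5. Epas1, Car9, Stc1 and Ppp1r3c are high in all 3 libraries of set 3. Car9 passes the colour limit in each of these, and Stc1 in those of Hsp70 and of high glucose.

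The clearest contrast among these genes was between sets. In set 3, where the sums of all marker lists were higher, 11 of the 34 genes were higher than in the other sets and none was lower. They were Epas1, Egln1, Mxi1, Ndrg1, Bnip3, Higd1a, Ak4, P4ha2, Car9, Stc1 and Ppp1r3c. The contrast was set 3 minus the mean of sets 2, 4 and 5 in the same limma model, at an adjusted p under 0.05, and its p-values treat libraries of 1 set as separate samples. That is 32.4% of the 34, against 8.21% of all genes called higher. Of all genes, 4.48% were called lower, and 0 of the 34 were (limma; at an unadjusted p under 0.05, 12 of the 34 were higher and 0 lower). An F test over the 4 sets called 11 of the 34 (32.4%, against 11.9% of all genes), with Kdm3a in place of Egln1.

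Car9 was 2.35 higher in set 3 (SE 0.16, 5.10-fold, adjusted p = 3.01e-05, limma) and Stc1 2.02 higher (SE 0.15, 4.05-fold). Epas1 was higher by 1.68 (SE 0.15, 3.21-fold) and Ppp1r3c by 1.30 (SE 0.14, 2.47-fold). These 4 kept an adjusted p under 0.05 in all 18 alternatives run for them. Ndrg1 was higher by 0.91 (SE 0.11), Higd1a by 0.86, Bnip3 by 0.71, P4ha2 by 0.70, Ak4 by 0.63 and Mxi1 by 0.49. Egln1, at 0.33 (SE 0.09, adjusted p = 0.0435, limma), lost its call when any 1 library other than Hsp70 replicate 3 was left out, and under median centring. Hif1a did not follow: its set 3 difference was -0.11 (SE 0.17, unadjusted p = 0.558, limma). Without the set 3 library of high glucose, or without that of Hsp70, 6 of the 34 were called, and Mxi1 and Bnip3 were not among them. The F test called 17 without the Hsp70 library of set 4. It called 4 without high glucose replicate 2, 5 without Hsp70 replicate 2, 6 without normal glucose replicate 3 or Hsp70 replicate 1 or 4, and 7 without high glucose replicate 4. Endothelial, macrophage and Schwann cell markers move with this result over most of their lists, and fibroblast and smooth muscle markers in part. Their part in it was not tested.

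**Figure D4:**
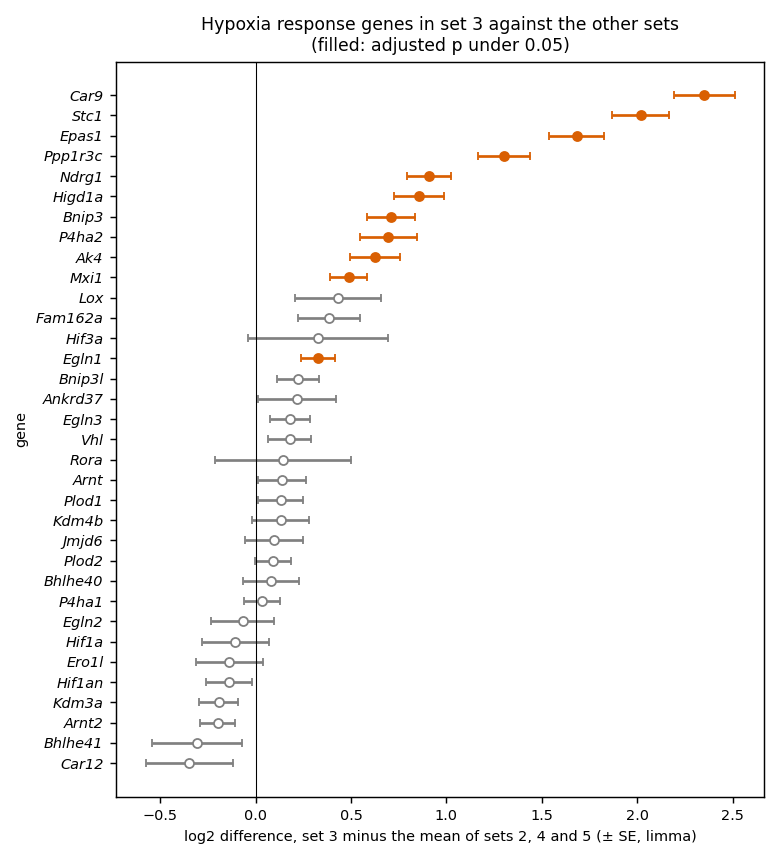
Log2 difference of set 3 from the mean of sets 2, 4 and 5 (± SE) for the 34 genes, ordered by size; filled points have an adjusted p under 0.05 in limma. The 11 filled points are all above 0, from 0.33 for Egln1 to 2.35 for Car9.

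Other HIF targets, taken from lists of known targets, gave no call between groups either. Of 23 that serve glucose uptake and use, 0 passed in limma for high against normal glucose, and at an unadjusted p under 0.05 there was 1, Pfkfb4, a regulator of glycolysis (difference 0.47, SE 0.18). Of the 23, 14 lay below 0, and 10 did so in every set, with a median of -0.03. Over all 18248 genes tested, 9216 lay below 0, 14.3% did so in every set, and the median was -0.0024. Slc2a1, the glucose transporter of most cell types, differed by -0.30 in high glucose (SE 0.14, unadjusted p = 0.0559) and by -0.46 with Hsp70 (SE 0.14, unadjusted p = 0.00827, adjusted p = 1, limma), both against normal glucose. Of 17 vessel and secreted targets, 0 passed, 12 lay below 0 in high glucose and 14 with Hsp70. Among these 17, Flt1, a VEGF receptor, differed by -0.61 in high glucose (SE 0.25, unadjusted p = 0.0337, limma), although it was above 0 in set 3. Of 16 targets in stress and metabolism, 0 passed and 9 lay below 0 in high glucose. At an unadjusted p under 0.05 there were 2 of the 17 and 1 of the 16, all lower, in high against normal glucose (limma). Over all genes 3.49% came to that level in this comparison. In set 3, 6 of the 23 glucose genes were called higher and 1 lower, 7 of the 17 vessel genes higher and 2 lower, and 5 of the 16 stress genes higher and 1 lower, against 8.21% higher and 4.48% lower over all genes. The 6 include Slc16a3, a lactate exporter (difference 1.42, SE 0.22), and Ldha, which makes lactate (0.60, SE 0.12).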

How the data were processed

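Messenger RNA was sequenced in 11 libraries (n = 4, 4 and 3), made with a stranded kit per the labels' protocols. The authors deposited 1 file per library of log2 values, which were read here as log2(normalized count + 1). TopHat, edgeR and mm10 are named without versions, per the submitters' processing notes; the sources used here name neither the kind of normalization nor the strand counted. Of the genes in sets 4 and 5, 11.8% hold 0 and undetected genes can hold small values above 0, against 21.2% to 25.9% at 0 in sets 2 and 3. Rn45s, a ribosomal RNA gene, took 0.638% to 7.00% of normalized counts. Of 23282 rows a file, 44 duplicate symbols were dropped, and 18248 genes with a normalized count of 1 or more in 3 or more libraries were tested.

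The model was fitted in limma 3.58.1 (R 4.3.3; trended prior, robust variance) with a term for group and for file set, with Benjamini-Hochberg adjustment at 0.05; the script was tested on simulated data. Positions are from GENCODE M21 and promoters from RefSeq. Python 3.11.15 and matplotlib 3.10.9 made the figures. The members, lists and tests were chosen with earlier results of these data known. Values per library are given for every HIF alpha subunit and Egln gene, for genes at an unadjusted p under 0.05 or among the 3 smallest in a comparison, and for the 5 largest set 3 differences. Car12 and Plod1 were added after their values were seen, and up to 4 genes of other lists are named by smallest p.

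The set number is in the file names only. After group means were taken out, libraries of 1 set correlated at 0.285 to 0.594 for high and normal glucose, at 0.0586 to 0.691 for Hsp70 and high glucose and at 0.0219 to 0.458 for Hsp70 and normal glucose, across genes. By the number in the titles, the values with normal glucose were -0.357 to 0.137. Alternatives were other blocks, subsets of sets, filters, a pseudocount of 8, quantile normalization, median centring, other variance estimates and leaving out each library.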

Additional observations from a re-analysis of the deposited data

Results flagged for a closer look

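In each of the 34 genes, the 4 high glucose libraries, the 4 Hsp70 libraries and the 4 within-set differences between them were searched for a value far from the other 3, judged by Dixon's 95% critical value. Of 102 groups of 4 examined, 9 held one, where chance alone gives about 1 in 20. All 5 levels found were in set 3. Car9 stood at 8.92 in the set 3 library with Hsp70, against 6.31 to 6.62 in the other 3, and at 8.62 in that of high glucose, against 5.85 to 6.26. Stc1 stood at 10.55 with Hsp70 (others 8.34 to 8.67) and at 10.53 in high glucose (others 8.05 to 8.39). Car12 was low there, at 5.09 in high glucose (others 5.59 to 5.62).

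Of the 4 differences found, Hsp70 minus high glucose, 3 were in set 4, the set of the Hsp70 library farthest from its neighbours. Hif1a differed by -0.65 in set 4 (others -0.01 to 0.02), Lox by -1.17 (others -0.04 to 0.13) and Egln1 by -0.0497 (others -0.13 to -0.11). Hif3a differed by -1.44 in set 2 (others -0.07 to 0.09).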

How the results depend on the processing

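Of 1380 alternative values for the group differences of the 15 genes described, 1359 moved by less than 1 SD of the within-set differences, 20 moved by more and 1 came to pass the adjusted test: Bhlhe40, both high glucose groups against normal glucose with sample weights (-0.72, adjusted p = 0.0351, limma). Of 270 for set 3, 248 counted as the same, 15 lost the call, 6 moved and 1 gained a call. For genes called in the main fit, the same means that sign and call were kept, and size was not compared. For the others it means a shift of less than 1 SE. With sample weights the genes called were 21 between high and normal glucose, 1 between Hsp70 and normal glucose, 68 for both high glucose groups against normal glucose, 6662 for set 3 and 8529 among sets. Members called with sample weights were 1 for both high glucose groups and 21 among sets. With no filter 1375 genes were called among sets. With each library left out in turn, genes called ranged from 0 to 2 for both high glucose groups against normal glucose (2 without Hsp70 replicate 3), from 966 (without high glucose replicate 2) to 3804 (without Hsp70 replicate 3) for set 3, and from 613 to 5195, for the same libraries, among sets. Members called ranged from 6 to 13 for set 3 and from 4 to 17 among sets.

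The median difference of the 34 genes for Hsp70 against normal glucose was -0.158 with no replicate block, -0.122 with the block by title number, -0.106 without set 3, -0.105 in sets 4 and 5 alone and -0.114 with sample weights. It ranged from -0.0961 (without Hsp70 replicate 2) to -0.0280 (without normal glucose replicate 2) with each library left out. For both high glucose groups against normal glucose it was -0.103 with no block and -0.136 with the block by title number, which gave -0.111 for high against normal glucose. For set 3 it was 0.0895 under median centring. The block changed no other call. The cause of these shifts was not tested. The number of libraries limits the precision: no gene passed in the 4 group comparisons, and sequencing depth per library is known only as normalized counts.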

Other observations

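Core clock genes were examined because Bhlhe40, Bhlhe41 and Rora also act in the clock. Of 19 tested, 0 passed in limma in any group comparison, and 1 had an unadjusted p under 0.05 in each (against 1.67% to 3.73% of all genes). With Hsp70 against normal glucose 15 lay above 0 and 4 below, with a median of 0.11, beside 0.0001 over all genes tested. Of the 19, 6 were above 0 in every set, against 7.62% of all genes. Per2, a repressor of the clock, differed by 0.41 between high and normal glucose (SE 0.16, unadjusted p = 0.0344, limma), above 0 in 3 of 3 sets. Npas2, a partner of the clock activator, differed by 0.69 between Hsp70 and high glucose (SE 0.27, unadjusted p = 0.0287, limma), above 0 in 4 of 4 sets.

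Among 26 relatives of the targets tested, 0 passed in limma. Stc2, the paralog of Stc1, differed by -0.50 between high and normal glucose (SE 0.21, unadjusted p = 0.0372, limma), below 0 in 3 of 3 sets, where Stc1 differed by 0.40. With Hsp70 against high glucose Stc2 differed by 0.45 (SE 0.19, unadjusted p = 0.0373, limma). Within sets 2 to 5 this was 0.76, 0.06, 1.00 and -0.02. Both Stc2 differences use the same high glucose libraries and are not independent. Kdm6b, a histone demethylase, differed by 0.39 between Hsp70 and normal glucose (SE 0.13, unadjusted p = 0.0167, limma) and was above 0 in 3 of 3 sets. Of 15 genes for HIF turnover and coactivators, 0 passed and 0 had an unadjusted p under 0.05 between groups, and 12 lay above 0 for high against normal glucose (median 0.06).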
